A study of Mus musculus with 6 samples.

Results

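The genes described here are 31 markers of neurons, peripheral glia and chromaffin cells, measured by RNA sequencing of whole mouse kidneys at E13.5. The rule lists them by gene name and uses no measured value, and all 31 of the listed genes were among the 22394 genes of the table. The list itself was chosen with earlier results of these data known, so counts over it beside all genes are no blind test. The study set 3 mutant embryos, which carried Foxd1Cre together with 1 floxed and 1 null allele of Ptch1 (Foxd1Cre;Ptch1 flox/-), against littermate controls, in 3 libraries, with a floxed and a wild-type allele (Ptch1 flox/+), for which the labels name no Cre. Both kidneys of a mouse were collected as a pair. Cre was driven by Foxd1, a transcription factor gene of renal stromal progenitors, while the null Ptch1 allele was present in every cell of the mutants. The Cre driver, the null allele and the loss of Ptch1 in the Foxd1 lineage therefore cannot be told apart. RNA came from whole kidneys, so fewer cells of a type and less RNA per cell cannot be told apart either.

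The sympathoadrenal lineage arises from the neural crest, which migrates beside the dorsal aorta and forms sympathetic neurons and the chromaffin cells of the adrenal medulla and paraganglia. Its cells are specified by transcription factors such as Phox2a and Hand2, make noradrenaline from tyrosine through Th, Ddc and Dbh, and pack it into vesicles with a monoamine transporter and granins. Sympathetic axons grow into the developing kidney along its arteries, and Schwann cell precursors travel with them. The cell bodies of these neurons lie outside the organ, next to the adrenal gland and the aorta, so that a dissected kidney may hold axons, glia and any adjoining ganglion tissue.

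Among the genes with the largest differences were those of the noradrenaline enzymes Th and Dbh, the vesicular transporter Slc18a2 and the granins Chga and Chgb. Their promoters are shown because mutant 3 had the highest level of each of these 5 genes and because the cyclic AMP response element TGACGTCA, bound by Creb proteins, is a known element of several chromaffin genes. Each run covers 250 bases before to 50 after the RefSeq start in GRCm38.p6, read 5′ to 3′ on the strand of the gene. Capitals mark TGACGTCA or, where only its first letters are present, TGACG on either strand. The regions are chr7:142899946-142900245 (Th, minus strand), chr2:27165257-27165556 (Dbh, plus), chr19:59260628-59260927 (Slc18a2, plus), chr12:102554691-102554990 (Chga, plus) and chr2:132781392-132781691 (Chgb, plus).
Th: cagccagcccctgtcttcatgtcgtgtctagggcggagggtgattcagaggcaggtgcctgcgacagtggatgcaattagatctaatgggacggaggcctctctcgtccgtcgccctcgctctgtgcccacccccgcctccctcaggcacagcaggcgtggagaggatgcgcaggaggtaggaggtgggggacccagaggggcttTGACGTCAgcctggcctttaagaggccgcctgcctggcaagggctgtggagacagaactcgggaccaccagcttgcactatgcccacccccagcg
Dbh: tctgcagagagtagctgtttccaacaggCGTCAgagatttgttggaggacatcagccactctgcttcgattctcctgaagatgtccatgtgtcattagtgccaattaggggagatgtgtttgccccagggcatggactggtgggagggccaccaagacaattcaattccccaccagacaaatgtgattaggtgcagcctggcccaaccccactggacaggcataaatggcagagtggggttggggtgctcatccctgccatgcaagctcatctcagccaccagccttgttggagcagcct
Slc18a2: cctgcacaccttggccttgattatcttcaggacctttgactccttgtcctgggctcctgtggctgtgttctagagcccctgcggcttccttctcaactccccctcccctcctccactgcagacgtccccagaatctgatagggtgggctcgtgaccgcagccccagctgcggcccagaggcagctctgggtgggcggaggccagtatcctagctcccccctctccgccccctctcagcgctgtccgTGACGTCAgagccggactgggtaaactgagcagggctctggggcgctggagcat
Chga: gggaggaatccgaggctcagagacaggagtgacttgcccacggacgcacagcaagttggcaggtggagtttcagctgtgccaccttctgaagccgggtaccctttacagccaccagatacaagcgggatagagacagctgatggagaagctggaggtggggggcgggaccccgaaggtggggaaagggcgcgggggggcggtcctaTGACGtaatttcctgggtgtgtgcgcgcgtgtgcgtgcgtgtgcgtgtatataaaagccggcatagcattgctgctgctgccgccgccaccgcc
Chgb: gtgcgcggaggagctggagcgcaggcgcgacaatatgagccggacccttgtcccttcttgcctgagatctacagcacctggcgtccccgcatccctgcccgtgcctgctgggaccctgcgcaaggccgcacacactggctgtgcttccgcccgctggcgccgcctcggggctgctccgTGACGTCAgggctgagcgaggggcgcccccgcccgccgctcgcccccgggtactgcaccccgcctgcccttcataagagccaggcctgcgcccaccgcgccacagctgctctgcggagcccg

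The full element stood 45 bases upstream of the start of Th and 72 bases upstream in Chgb. In Slc18a2 it spanned the start, with 4 bases before it and 4 from it on. Of the 31 genes, 21 had an entry in the promoter table, and 5 of these held TGACGTCA, namely Th, Slc18a2, Chgb, Cartpt and Foxd3. The same letters were in 1.79% of the 32851 promoters of this length. The 21 genes had 27 promoters, and a gene was counted if any of its promoters held the motif. The shares are of single promoters, so counts and shares here are in unlike units. The shorter TGACG, which lies within the full element, was in the promoters of 10 of the 21 genes and in 20.8% of all promoters. Those 10 were Hand2, Isl1, Th, Dbh, Slc18a2, Chga, Chgb, Elavl4, Cartpt and Foxd3. CATCTG, an E-box bound by Hand factors, was found in Hand2, Elavl4, Cartpt and Fabp7 and in 17.2% of all promoters. GACCACCCA, the site of the Hedgehog effectors of the Gli family, was found in 0 of the 21 genes and in 0.253% of all promoters. In all, 10 motifs were searched on both strands, chosen with these promoters in view, and the elements above are the ones described because of the noradrenergic and Hedgehog context. The other motifs were CACGTG (1 of the 21 genes, 7.15% of all promoters), GGTGGTC (1 gene, 2.8%), TTCAGCACC (0 genes, 0.371%), GGACAGC (3 genes, 6.56%), CCACCC (11 genes, 31.5%) and TATAAA (5 genes, 13.6%). GGTGGTC reads GACCACC on the other strand, which is the start of the Gli site, and its 1 gene was Th. CCACCC also lies within the Gli site, and its 11 genes included Th and Slc18a2.

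Levels are given in FPKM, a read count corrected for transcript length and for sequencing depth. The recovered reads summed to 21644399, 24962204 and 25416896 for controls 1 to 3, and for mutants 1 to 3 to 21015151, 13261588 and 47847925, so mutant 3 was the deepest library and mutant 2 the shallowest. Ptch1, a receptor gene that is itself a Hedgehog target, was higher in the mutants (7.92 ± 0.331 against 29.7 ± 6.17 FPKM, SD, n = 3 each, adjusted p = 0.00443 in limma), as was the target gene Hhip (0.351 ± 0.108 against 19.4 ± 3.37 FPKM). Neither value shows whether the floxed exons were removed. Mutant 3, on which several results below rest, had the X-linked RNA Xist at 6.19 FPKM beside the Y-linked gene Ddx3y at 13.9 FPKM. Mutants 1 and 2 and control 2 had Xist at 0.0471 to 0.206 FPKM and Ddx3y at 15.8 to 17.8 FPKM, while controls 1 and 3 had Xist at 53.3 to 72.9 FPKM and Ddx3y at 0.0177 to 0.0598 FPKM. The embryos were therefore not matched for sex between the groups, and the part of sex in the results was not tested. Whether mutant 3 held RNA of more than 1 embryo was not tested.

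The 31 genes were mostly rare transcripts in these kidneys. Mean levels over the 6 libraries ranged from 0.158 to 45.6 FPKM, with 17 genes under 1 FPKM, 11 between 1 and 5 FPKM and 3 above 5 FPKM. The 3 above 5 FPKM were Uchl1, Npy and Gap43, and for each of them the control and mutant levels overlapped. The main test, limma on log2(normalized count + 1), covered 16933 genes, among them 28 of the 31. Hand1, Cartpt and Foxd3 were too low for it. Of the 28, 0 passed at an adjusted p under 0.05, where 0.307% of all tested genes were called, 0.219% higher and 0.0886% lower in the mutants. The unadjusted p was under 0.05 for 8 genes, all higher in the mutants (Hand2, Isl1, Th, Dbh, Slc18a2, Chga, Chgb and Tubb3), against 5.26% of all tested genes higher and 4.37% lower. Limma-voom, run on the reads recovered from the deposited values, also called 0 of the 28, with 10 higher and 0 lower at an unadjusted p under 0.05 (6.35% and 3.12% of all tested genes). All mutants lay above all controls for 5 of the 28 (Hand2, Isl1, Slc18a2, Chga and Tubb3; 7.57% of all tested genes), and the reverse held for 0 (9.09%).

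The tested genes had a median log2 fold change of 0.53, against -0.0074 over all genes tested, and 23 of the 28 were above 0 (49.1% of all tested genes), while 9 exceeded 1 (3.11%). Since genes that were low in every library could not enter, the same median was taken with no filter, where it was 0.58 over all 31. It was 0.19 on log2(FPKM + 1), and 0.048 over the 12 genes with at least 1 FPKM in 3 libraries. Without mutant 3 the median over 28 genes was 0.27, with 3 genes higher (Hand2, Isl1 and Slc18a2; 3.63% of all tested genes) and 1 lower (Nefl; 3.64%) at an unadjusted p under 0.05. Without both libraries numbered 3, of the 22 still tested, Isl1, Slc18a2 and Chga were higher (2.37%) and Nefl lower (1.6%) at that level. Hand2, Th, Dbh, Chgb, Snap25 and Sox10 were too low for that fit and were not tested in it. Medians by role, which were not tested against each other, ranged widely. The 3 tested transcription factors, the 5 genes of catecholamine synthesis and vesicle loading and the 2 granins had median log2 fold changes of 1.58, 2.20 and 2.50. The 11 genes of the neuronal cytoskeleton and cell body had a median of 0.025, and the 4 tested glial genes a median of 0.63.

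**Figure D1:**
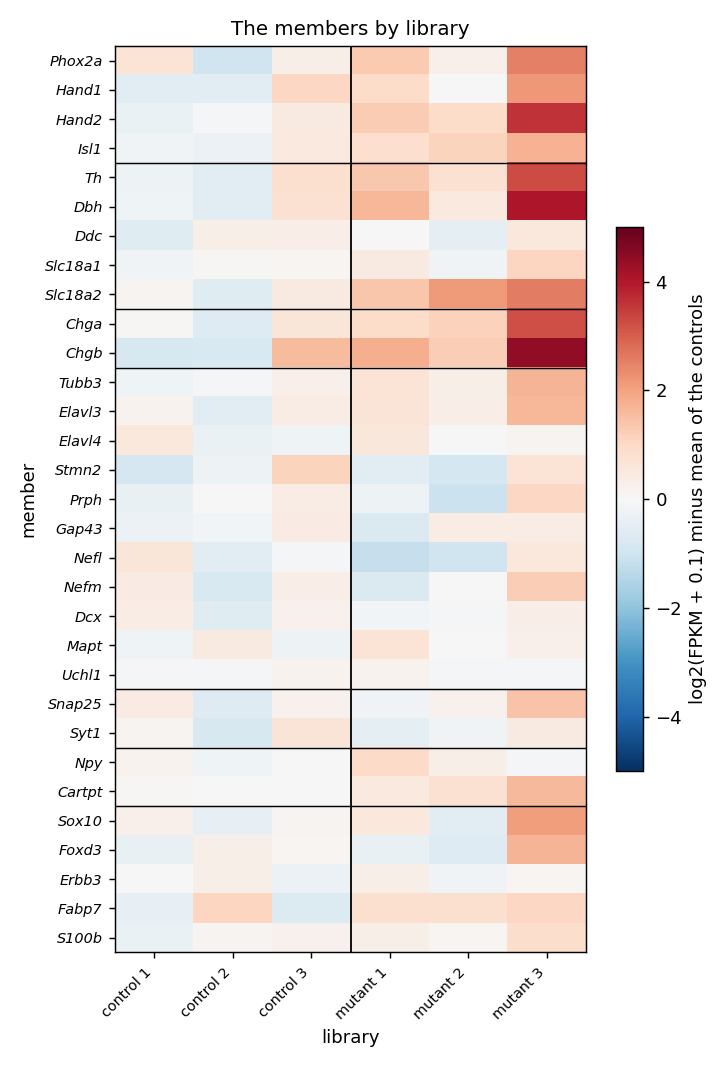
Level of each of the 31 genes (rows, ordered by role, with lines between roles) in each library (columns), as log2(FPKM + 0.1) minus the mean of the 3 controls. The strongest colours are in mutant 3, for transcription factor, catecholamine and granin genes, while the rows from Elavl4 to Uchl1 show no common direction.

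Among the transcription factors of the lineage, Hand2 differed most. Hand2 (ENSMUSG00000038193.4, chromosome 8, 57320983 to 57324633, GRCm38), a basic helix-loop-helix factor needed for noradrenergic differentiation, was at 0.0974, 0.136 and 0.242 FPKM in controls 1 to 3 and at 0.504, 0.382 and 2.97 FPKM in mutants 1 to 3. All mutants lay above all controls, and mutant 3 was at 6.71 times the mean of mutants 1 and 2. The log2 fold change was 2.36 (SE 0.74 and adjusted p = 0.384), and it was 1.46 (SE 0.54) without mutant 3. Exons of Hand2 overlap the opposite-strand gene Hand2os1, and the sources used here do not say if counting used strand, so reads in the shared stretch of up to 246 bases cannot be told apart.

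Isl1, a LIM homeodomain factor of sympathetic and sensory neurons, was at 0.255, 0.222 and 0.453 FPKM in the controls and 0.616, 0.772 and 1.24 FPKM in the mutants. Its groups did not overlap and it was the transcription factor least dominated by mutant 3, with a log2 fold change of 1.45 (SE 0.41 and adjusted p = 0.306) and 1.18 (SE 0.46) without that library. Phox2a, the homeodomain factor that acts on the Dbh and Th genes, was at 0.541, 0.0992 and 0.379 FPKM in the controls and 0.878, 0.372 and 2.13 FPKM in the mutants. Control 1 exceeded mutant 2, so the groups overlapped (log2 fold change 1.58 with an SE of 0.74, adjusted p = 0.537). Without mutant 3 that of Phox2a was 0.97 (SE 0.75), and without control 2 it was 0.94 (SE 0.63). Exons of Phox2a overlap the opposite-strand gene Inppl1 by up to 95 bases. Hand1, the relative of Hand2, had 0, 0 and 9 reads in the controls, where 0 reads allow up to 0.0722 FPKM in control 1 and 0.0628 FPKM in control 2. It had 7, 1 and 50 reads in the mutants, and 0.549 FPKM in mutant 3.

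The genes for making and storing noradrenaline were not uniform: Th and Dbh were led by mutant 3, Slc18a2 was higher in each mutant, and Ddc and Slc18a1 overlapped between the groups. Dbh (ENSMUSG00000000889.8, chromosome 2, 27165233 to 27183200), which turns dopamine into noradrenaline inside the vesicle, was at 0.126, 0.0781 and 0.335 FPKM in the controls and 0.714, 0.264 and 4.17 FPKM in the mutants. These levels rest on 7, 5 and 21 reads in the controls and 40, 9 and 509 reads in the mutants. Mutant 2 lay below control 3, so the groups overlapped although the means differed 9.56-fold (log2 fold change 2.50 with an SE of 0.93, adjusted p = 0.462). Th (ENSMUSG00000000214.11, chromosome 7, 142892752 to 142931128), the rate-limiting enzyme of the pathway, was at 0.117, 0.0818 and 0.355 FPKM in the controls and 0.561, 0.345 and 2.44 FPKM in the mutants. Here too mutant 2 lay just below control 3 (log2 fold change 2.20 with an SE of 0.77, adjusted p = 0.441). Without mutant 3 the log2 fold changes were 1.43 (SE 0.71) for Dbh and 1.40 (SE 0.67) for Th.

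Slc18a2 was less dominated by mutant 3. It encodes the vesicular monoamine transporter VMAT2 (ENSMUSG00000025094.7, chromosome 19, 59260896 to 59296012) and was at 0.265, 0.115 and 0.353 FPKM in the controls against 0.755, 1.34 and 1.85 FPKM in the mutants. Every mutant was above every control, on 63, 68 and 337 reads against 22, 11 and 33, and mutant 3 was only 1.39 times the next mutant. Its log2 fold change of 2.41 (SE 0.48, unadjusted p = 0.000831, limma adjusted p = 0.107) was the one with the smallest p of the 28 genes. Without mutant 3 it was 2.12 (SE 0.54 and adjusted p = 0.434), and with library weights it passed the test (log2 fold change 2.23, limma adjusted p = 0.0127). Those weights were largest for control 3 (2.51) and mutant 3 (2.17) and smallest for control 2 (0.33) and mutant 1 (0.58). Part of the exons of Slc18a2 overlap the antisense gene Gm29261.

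The other vesicular transporter, Slc18a1 (VMAT1), was at 0.147 to 0.196 FPKM in controls and at 0.278, 0.144 and 0.490 FPKM in the mutants, with overlapping groups (log2 fold change 0.58, SE 0.48). That of Slc18a1 was 0.17 without mutant 3 and 1.01 without mutant 2. Ddc, the decarboxylase that follows Th and that proximal tubule cells also express, was at 1.57, 3.04 and 3.13 FPKM in the controls and 2.42, 1.78 and 3.64 FPKM in the mutants. Ddc was the most abundant gene of this role and had a log2 fold change of 0.022 (SE 0.36).

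The granins, acidic proteins that condense the contents of dense-core vesicles, were also far higher in mutant 3 than in the other mutants. Chgb (ENSMUSG00000027350.8, chromosome 2, 132781278 to 132795079) was at 0.0836, 0.0873 and 0.847 FPKM in the controls and 1.03, 0.655 and 6.71 FPKM in the mutants. Control 3 was 9.91 times the mean of the other controls and mutant 3 was 7.96 times the mean of the other mutants, so both groups held 1 library far above the rest. Control 3 exceeded mutant 2, and the log2 fold change was 3.02 (SE 1.03 and adjusted p = 0.431). Chga (ENSMUSG00000021194.6, chromosome 12, 102554969 to 102565028) was at 0.341, 0.169 and 0.540 FPKM in the controls and 0.702, 0.834 and 3.81 FPKM in the mutants. Its groups did not overlap (log2 fold change 1.97 with an SE of 0.68, adjusted p = 0.431), and without mutant 3 the log2 fold change was 1.21 (SE 0.55).

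**Figure D2:**
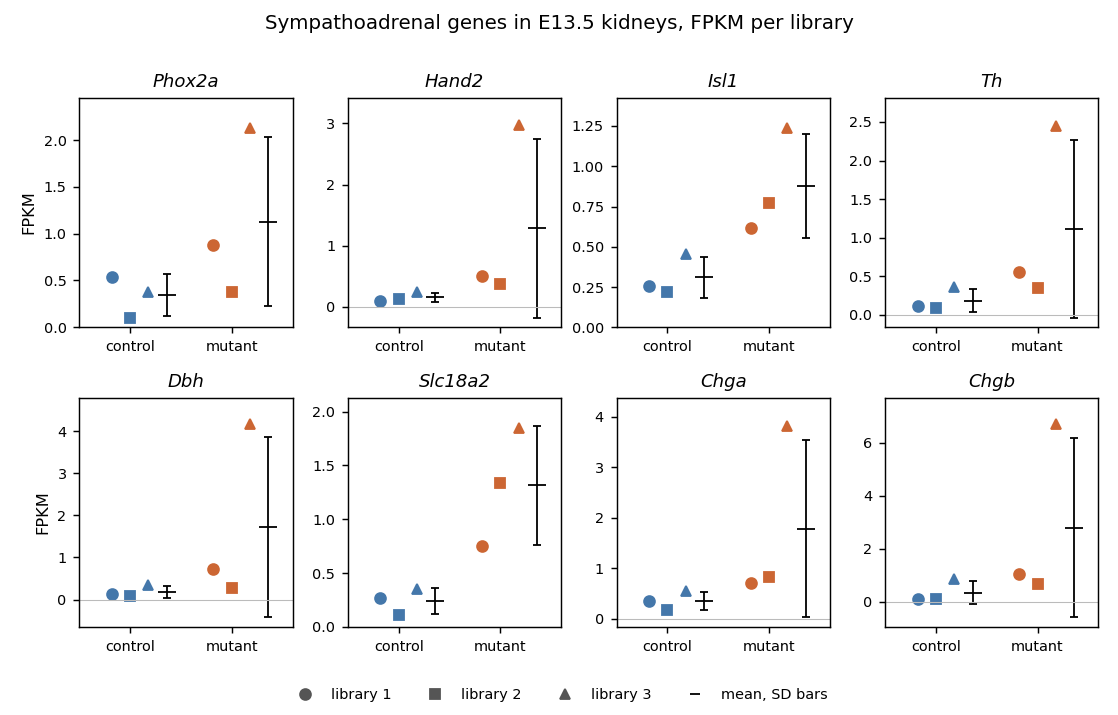
FPKM (linear axes from 0, except where an SD bar passes below 0) of 8 transcription factor, catecholamine and granin genes in the 3 control and 3 mutant libraries; marker shapes give the library number and black bars the mean and SD. Mutant 3 is the highest point in each panel, and the groups do not overlap for Hand2, Isl1, Slc18a2 and Chga.

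The authors' deposited table called 7 of these genes higher and 0 lower at an adjusted p under 0.05, where 3.07% of the 15881 genes with an adjusted p were called higher and 1.54% lower. They were Phox2a, Hand2, Th, Dbh, Slc18a2, Chga and Chgb, with log2 fold changes of 2.58, 2.63, 2.65, 3.22, 2.78, 2.51 and 3.10 and adjusted p-values of 0.0332, 0.00951, 0.0194, 0.000169, 2.89e-05, 0.00263 and 7e-08 in the authors' deposited table. For 3 of the 31 genes, Hand1, Cartpt and Foxd3, it gave no adjusted p. The deposited fold changes were not those of a plain contrast of the 3 mutant with the 3 control columns. Across the 8410 genes with a mean normalized count above 500, they correlated with that contrast at r = 0.894 (across genes, which are not independent) and at r = 0.981 when control 1 was left out. A least-squares fit of the deposited fold changes on the 6 libraries gave control 1 a weight of 0.018, against -0.59 for control 2 and -0.37 for control 3. The sources used here do not give the authors' model. Leaving out control 1, limma gave 2.03, 2.09, 2.03, 2.38, 2.54, 2.02 and 2.49 for these 7 genes in that order, each below its value in the authors' deposited table.

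Genes of axons and neuronal cell bodies had log2 fold changes nearer 0, apart from Tubb3 and Elavl3. Stmn2, a microtubule regulator of growing axons, was at 1.11, 1.76 and 4.60 FPKM in the controls and 1.38, 1.10 and 3.40 FPKM in the mutants, and its highest library was control 3. The log2 fold change was -0.27 (SE 0.56 and adjusted p = 0.866). The neurofilament genes Nefl and Nefm were at 3.47, 1.51 and 2.11 FPKM and at 2.85, 1.20 and 2.65 FPKM in the controls. In the mutants Nefl was at 0.957, 1.08 and 3.24 FPKM and Nefm at 1.23, 2.13 and 5.11 FPKM. For both, mutants 1 and 2 lay within or below the controls and mutant 3 was at 3.17 and 3.05 times their mean, and the log2 fold changes were -0.57 (SE 0.48) and 0.18 (SE 0.52). Without mutant 3 that of Nefl was -1.12 (SE 0.37, unadjusted p = 0.0174, adjusted p = 0.618), and it was -0.25 without control 1 or mutant 1 and -0.34 without mutant 2. The annotated exons of Nefl and Nefm overlap on opposite strands by up to 1108 bases, so reads there cannot be assigned to 1 gene.

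Prph, the intermediate filament of peripheral neurons, was at 0.442 to 0.807 FPKM in the controls and at 0.489, 0.240 and 1.35 FPKM in the mutants (log2 fold change -0.14, SE 0.59). Gap43, a growth cone protein, was at 6.26, 6.91 and 10.3 FPKM against 4.52, 9.95 and 9.78 FPKM. Dcx, a microtubule protein of young neurons, was at 2.14 to 4.28 FPKM in the controls and 2.93 to 4.15 FPKM in the mutants. Syt1, the calcium sensor of vesicle release, was at 0.439 to 1.35 FPKM against 0.586 to 1.17 FPKM. For Gap43, Dcx and Syt1 the log2 fold changes were within 0.05 of 0 and the sign turned under other settings. Snap25, a fusion protein of the same step, was lower still, at 0.0327 to 0.178 FPKM in the controls and 0.0840, 0.138 and 0.454 FPKM in the mutants. Its log2 fold change of 0.81 (SE 0.75) was 0.15 without mutant 3, 0.14 without control 2, 1.23 without control 1 and 1.31 without mutant 1.

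Tubb3, the neuronal beta tubulin, was the 1 gene of this role at an unadjusted p under 0.05. It was at 0.785, 0.897 and 1.13 FPKM in the controls and 1.56, 1.16 and 3.20 FPKM in the mutants, with mutant 2 just above control 3 (log2 fold change 0.94 with an SE of 0.39, adjusted p = 0.505, and 0.53 without mutant 3). The RNA-binding protein gene Elavl3 was at 0.137, 0.0477 and 0.170 FPKM against 0.227, 0.164 and 0.567 FPKM (log2 fold change 1.33 with an SE of 0.60, adjusted p = 0.524, and 0.83 without mutant 3 or without control 2). Exons of Elavl3 overlap the same-strand gene Gm49318 by up to 220 bases. The related Elavl4 was more abundant and overlapped between the groups, at 3.17 to 5.90 FPKM and 4.11 to 6.07 FPKM. The tau gene Mapt was at 0.643 to 1.11 FPKM and 0.797 to 1.32 FPKM. Uchl1, a ubiquitin hydrolase of neurons, was the most abundant of the 31 genes, at 42.3 to 51.3 FPKM in controls and 43.0 to 51.5 FPKM in mutants.

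Of the neuropeptides, Npy, a cotransmitter of noradrenaline, had its lowest level among the mutants in mutant 3. It was at 9.47, 7.19 and 8.41 FPKM in the controls and 16.4, 10.3 and 7.91 FPKM in the mutants, with overlapping groups (log2 fold change 0.41 with an SE of 0.29, adjusted p = 0.63). Cartpt was at 0.0967 to 0.111 FPKM in controls, on 3 reads in each, and 0.184, 0.242 and 0.524 FPKM in mutants, on 5, 4 and 31 reads. The levels of Cartpt did not overlap between the groups but rest on 5 reads or fewer in 5 of the 6 libraries.

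**Figure D3:**
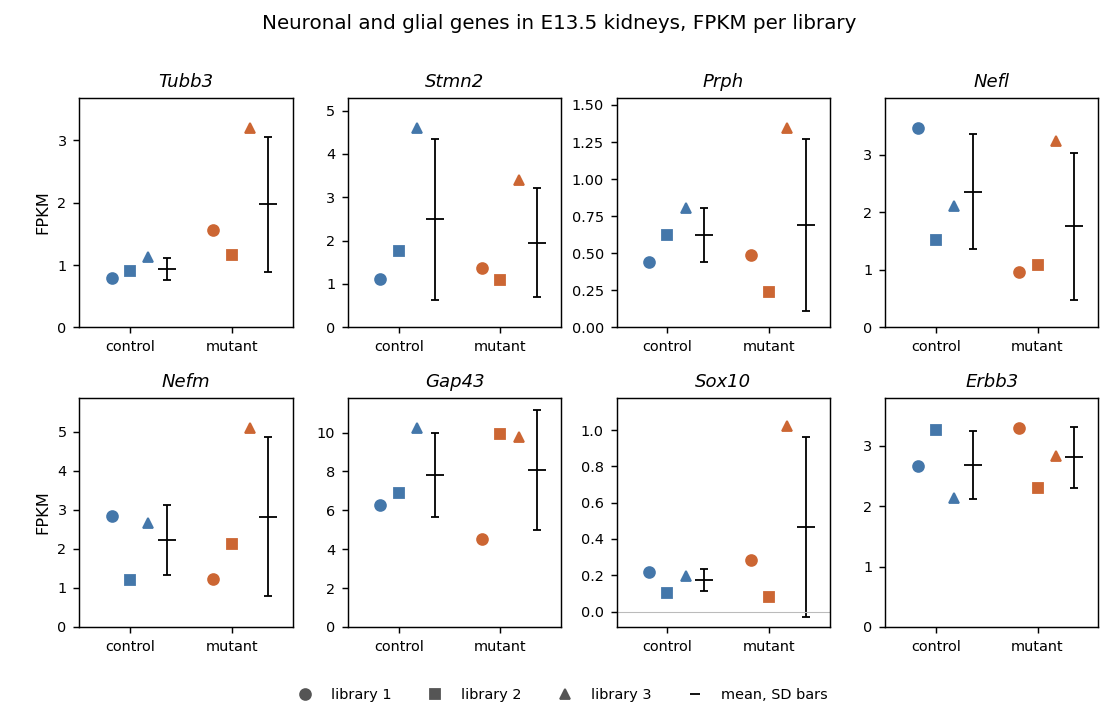
FPKM (linear axes from 0, except where an SD bar passes below 0) of 6 neuronal genes and the glial genes Sox10 and Erbb3 in each library, with the mean and SD as black bars. Mutant 3 is the highest mutant in 6 of the 8 panels, the exceptions being Gap43 and Erbb3, and the groups overlap in all but Tubb3.

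The glial and neural crest genes were mostly low, and the highest level of 3 of the 5 was in mutant 3. Sox10, the transcription factor that defines crest-derived glia, was at 0.220, 0.103 and 0.195 FPKM in the controls and 0.286, 0.0827 and 1.03 FPKM in the mutants. Mutant 3 was 5.57 times the mean of mutants 1 and 2, mutant 2 was the lowest of all libraries, and the log2 fold change of 0.80 (SE 0.79 and adjusted p = 0.708) became -0.069 without mutant 3, 1.63 without mutant 2 and 0.49 without control 2. Foxd3, a crest and Schwann cell precursor factor, had 3, 9 and 7 reads in the controls and 3, 1 and 64 reads in the mutants, and its level in mutant 3 was 12.7 times the mean of mutants 1 and 2. S100b, a calcium-binding protein of glia, was at 0.309 to 0.494 FPKM in controls and 0.453 to 0.831 FPKM in mutants. Erbb3, the neuregulin receptor of Schwann cells that epithelia also express, was at 2.14 to 3.26 FPKM in controls and 2.30 to 3.30 FPKM in mutants. Fabp7, a fatty acid binding protein of radial and Schwann cell precursors, was at 0.989, 2.95 and 0.786 FPKM in the controls and 2.38, 2.38 and 2.85 FPKM in the mutants, so control 2 exceeded every mutant (log2 fold change 0.91 with an SE of 0.48, adjusted p = 0.563). For Fabp7 the value was 1.47 (SE 0.33, adjusted p = 0.0876) without control 2, 0.55 without control 3 and 1.44 (adjusted p = 0.0638) with library weights.

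Within the mutant group these genes were more uneven than most genes. Mutant 3 exceeded 2 times the higher of mutants 1 and 2 for 14 of the 28 tested genes, against 0.774% of all tested genes, and it was the highest of all 6 libraries for 17 of the 28, against 11.9%. The 14 genes crossed the roles, as they were Phox2a, Hand2, Th, Dbh, Chga, Chgb, Tubb3, Elavl3, Stmn2, Prph, Nefl, Nefm, Snap25 and Sox10. The SD among mutants on the log2 scale was larger than that of 90% of all tested genes for 17 of the 28, with a median of 0.79 against 0.19 over all tested genes. The comparison was with genes of any level, and the part of low read counts in it was not tested. Among more abundant genes, the SD exceeded that of 36.9% (Uchl1), 67.8% (Dcx), 65.1% (Erbb3) and 69.9% (Elavl4) of tested genes. For Gap43, Npy and Nefm it exceeded that of 92.4%, 88.2% and 97.9%. The controls were less uneven, with a median SD of 0.58 against 0.25, and control 3 was their highest library for 17 of the 28 genes (23.9% of all tested genes). It exceeded 2 times the next control for Th, Dbh, Chgb and Stmn2, against 0.602% of all tested genes. These counts were chosen after mutant 3 was known to stand apart, and they describe these libraries.

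Mutants 1 and 2 alone had a mean above that of the controls for all 4 transcription factor genes, 4 of the 5 catecholamine genes, both granins (2 of 2), 5 of the 11 cytoskeleton and cell body genes, 0 of the 2 vesicle release genes, both neuropeptides (2 of 2) and 4 of the 5 glial and crest genes. The share of all tested genes with such a mean was not counted. Over all tested genes the median log2 difference from the control mean was -0.0085 in mutant 1 and -0.0082 in mutant 2. The ratio of the means was only 1.07 for Sox10 and 1.04 for Erbb3, and on the log2 scale Sox10 was at -0.069 without mutant 3. The ratio ran from 0.813 (Ddc) to 4.28 (Slc18a2) among the catecholamine genes, with a median of 2.45. Among the cytoskeleton and cell body genes it ran from 0.432 (Nefl) to 1.65 (Elavl3), with a median of 0.927, so these genes lay on both sides of the controls. No difference between the roles was tested.

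**Figure D4:**
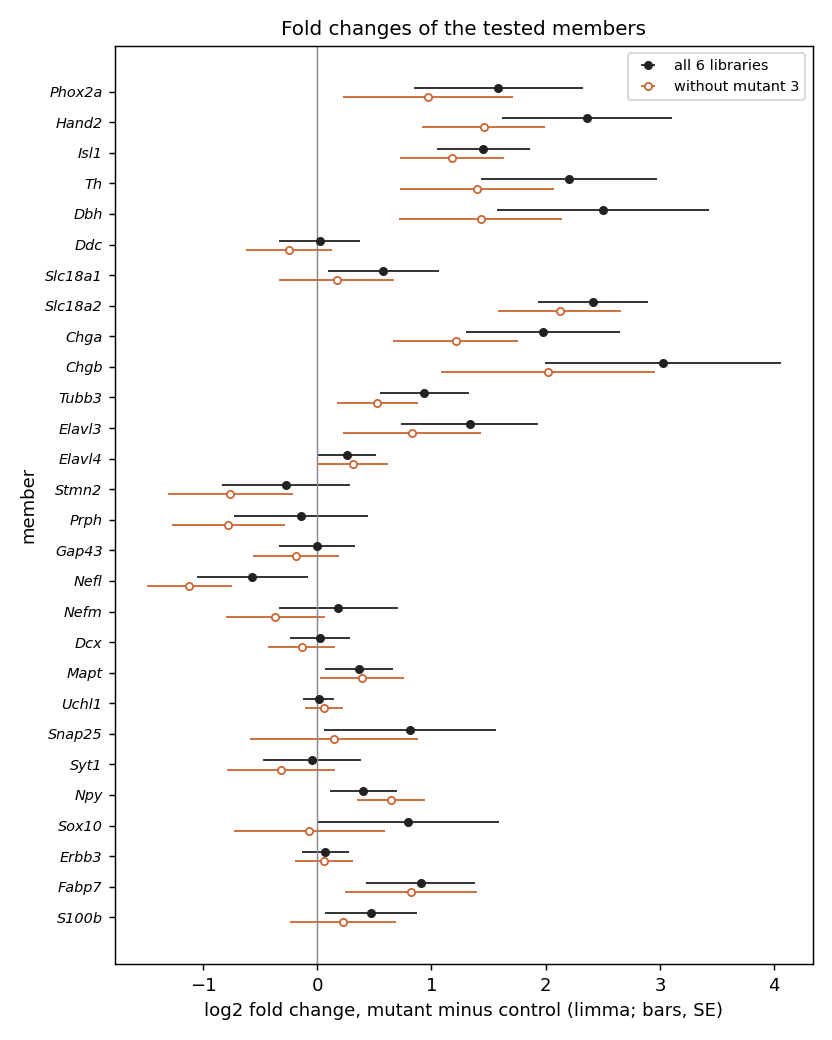
Log2 fold change (mutant minus control, limma) of the 28 tested genes with all 6 libraries (filled) and without mutant 3 (open); bars are standard errors. Leaving out mutant 3 moves Hand2, Th, Dbh, Chga and Chgb towards 0 (Dbh from 2.50 to 1.43), moves Slc18a2, Isl1 and Slc18a1 by less, and moves Stmn2, Prph and Nefl further below 0.

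Other genes of the same cells were read from lists of gene names, also chosen with earlier results of these data known. Of 23 further sympathoadrenal and autonomic genes, 22 were measured and 15 tested. None of the 15 was called by limma (0, with 0 also at an unadjusted p under 0.05), 0 of the list were called in the authors' deposited table, and the median log2 fold change was 0.20. The most abundant, the neurotrophin receptor gene Ngfr (21.6 ± 7.10 and 23.8 ± 2.13 FPKM), Gata2 (14.2 ± 1.70 and 16.4 ± 2.96 FPKM) and the synuclein gene Sncg (9.22 ± 3.95 and 9.76 ± 1.80 FPKM), are genes that other kidney cells may express too. For 13 of the 22 measured genes mutant 3 was the highest library, against 11.9% of all tested genes. Some of the 13 rest on few reads, such as Slc6a2 with 0, 0 and 3 reads in controls and 2, 0 and 19 in mutants. Of 12 further Schwann lineage genes, 9 were tested with a median log2 fold change of 0.20, and 0 were called. The endothelin receptor gene Ednrb (4.51 ± 0.867 and 8.10 ± 1.74 FPKM, limma adjusted p = 0.226) was the 1 of them with an unadjusted p below that level, while 2 of the 12 were called in the authors' deposited table. Of 8 measured neurotrophic ligand genes 0 were called, with 2 at an unadjusted p under 0.05. Gdnf, Ntf3 and Nrtn were at 18.5 ± 3.27, 9.88 ± 3.08 and 6.75 ± 1.30 FPKM in controls and 18.5 ± 1.74, 9.36 ± 1.09 and 10.04 ± 3.43 FPKM in mutants. Artn, the artemin gene of arterial walls that guides sympathetic axons, is named after its values were seen. It was at 0.758, 0.953 and 0.673 FPKM in controls and 1.51, 1.75 and 1.90 FPKM in mutants (log2 fold change 1.10 with an SE of 0.26, adjusted p = 0.198).

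Markers of other tissues were measured beside these genes. Of 13 adrenal cortex genes 10 were measured, and their summed level was 35.7 to 44.1 FPKM in controls and 34.1 to 40.0 FPKM in mutants, with Scarb1, Fdx1 and Fdxr the highest genes by mean and Akr1b7 above both Fdx1 and Fdxr in control 2. Akr1b7, an aldo-keto reductase of the cortex, was at 3.54, 11.4 and 4.54 FPKM in controls and 2.74, 3.27 and 2.55 FPKM in mutants (log2 fold change -0.99 with an SE of 0.40, adjusted p = 0.492), and it was the 1 gene of the list called by the authors' deposited table. The ACTH receptor gene Mc2r was at 0.963 to 1.97 FPKM and the steroid dehydrogenase gene Hsd3b6 at 0.0509 to 1.26 FPKM. Lower still, Star was at 0.134 to 0.236 FPKM and Cyp11a1 at 0.0217 to 0.151 FPKM, while Hsd3b1 had 6 reads in control 3, 5 in mutant 3 and 0 in the other libraries, where 0 allows up to 3 reads. Mutant 3 was the highest library for 0 of the 10, against 11.9% of all tested genes. Of the 8 tested 0 were called and 1 (Akr1b7) was lower at an unadjusted p under 0.05. Of 7 sensory neuron genes 5 were measured, with sums of 1.92 to 4.56 FPKM in controls and 3.03 to 6.49 FPKM in mutants, of which Pou4f1 gave the largest share (1.35 of 1.92 FPKM in control 3). Of 8 spinal cord and brain genes 1, Olig1, was measured, at 0 to 0.212 FPKM. The 2 measured cholinergic genes summed to 0.0154 to 0.219 FPKM and 0.0289 to 0.191 FPKM. Endothelial genes were higher in the mutants (summed level 147 to 154 FPKM against 271 to 321 FPKM, 4 of 9 called, Emcn, Tie1, Cldn5 and Esam). The authors' deposited table called 8 of them. Mutant 3 had the highest level of 7 of the 9 (11.9% of all tested genes). Skeletal muscle genes were lower (40.8 to 64.9 FPKM against 18.5 to 24.5 FPKM, 4 of 7 tested called, Acta1, Myh3, Myog and Mylpf), with 5 called by the authors. The kidney lineage list summed to 299 to 408 FPKM in controls and 296 to 306 FPKM in mutants, with 0 of 7 called and 3 at an unadjusted p under 0.05. Of those 3, Gata3 was higher and Wt1 and Pax2 were lower in the mutants. The authors' deposited table called 2 of the 7, Wt1 and Gata3. What part vessels, muscle, depth or sex had in the levels of the neuronal genes was not tested.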

How the data were processed

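Both kidneys of E13.5 mice were sequenced as whole-organ RNA in 3 control and 3 mutant libraries. The submitters' processing notes list Trim Galore, STAR (2.6.0c), HTSeq (0.6.1p2), DESeq2 and build mm10. The deposited table held FPKM per library, a unit inferred from the values since no header names it. Per the file headers it also held a mean signal over libraries, the log2 fold change with its error, a test score, the p-value and the adjusted p-value of the authors' comparison.

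Gene length was removed by scaling FPKM to that mean signal. Of 134364 values, 100% were whole multiples of 1 step per library (within 0.0001 of a read), which recovered the reads. Limma 3.58.1 (R 4.3.3, trend) compared log2(normalized count + 1) for genes reaching 10 in at least 3 libraries, with Benjamini-Hochberg adjustment over all 16933. This scale understates the change of low genes. The script was tested on simulated data. Alternatives changed the pseudocount, unit, filter, scaling, library weights, replicate block and libraries; limma-voom and leaving out both libraries numbered 3 were added after seeing the data.

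The members and lists were chosen with earlier results of these data known. All 31 members are named; those at an unadjusted p under 0.05, called by the authors, or among the 5 highest in mean FPKM or in log2 range among mutants are described in full. From other lists, called genes and the 3 highest uncalled ones are named. Other genes were named after their values were seen. Positions are from GENCODE M21 (GRCm38, the assembly of mm10). The design text names 3 mutant mice but no number of control mice, so p-values may measure only the spread between libraries.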

Additional observations from a re-analysis of the deposited data

How the results depend on the processing

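The count of called genes among the 28 stayed at 0 in limma under each alternative but library weights, where Slc18a2 was called (1 gene), and it was 7 in the authors' deposited table. Of the 28, only 22 were tested without both libraries numbered 3, and 12 with at least 1 FPKM in 3 libraries. Over all genes, 52 were called, against 380 with library weights, 732 in the authors' deposited table and 5 without both libraries numbered 3. Leaving out 1 library gave 6 to 149, namely 15, 149 and 19 leaving out each control in turn and 8, 6 and 7 for each mutant, with fewer samples in each fit. The median over the 28 genes was 0.27 to 0.80 with 1 library left out, 0.19 on log2(FPKM + 1) and 0.048 over the 12 genes with at least 1 FPKM in 3 libraries.

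Replicate numbers did not pair all the samples: the deviations of same-numbered libraries correlated at r = 0.00081, -0.098 and 0.31. Not every library correlated best with its own number. The libraries numbered 3 had the highest correlation of any control with any mutant, ahead of control 2 with mutant 1 (r = 0.23). A shared effect on them was not tested. With the replicate number as a block, 17 genes were called and 0 of the 28. The block lowered the SE to 0.32 for Chgb (limma adjusted p = 0.054), 0.40 for Th and 0.47 for Dbh, while those of Mapt, Erbb3 and Uchl1 rose.

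Among single genes, 42 values turned sign under an alternative while 488 kept their direction and side of the threshold and 8 passed it, the 42 all of genes far from the threshold (the cause was not tested). Ddc was at -0.060 with quantile normalization, -0.045 with library weights, -0.075 without both libraries numbered 3 and -0.20 in the authors' deposited table. Gap43 was at 0.0040 on log2(FPKM + 1), 0.029 with upper-quartile scaling, 0.029 without both libraries numbered 3, 0.062 in limma-voom and 9.8e-05 in the authors' deposited table. Prph was at 0.012 on log2(FPKM + 1) and 0.17 in limma-voom. Dcx and Uchl1 were at -0.056 and -0.15 with library weights. Without both libraries numbered 3, Nefm, Dcx, Syt1 and Erbb3 were at -0.20, -0.027, 0.038 and -0.094. Syt1 was at 0.099 in limma-voom and 0.21 in the authors' deposited table, where Uchl1 was at -0.021. With 1 library left out, the genes that turned ranged over -0.30 to 0.27 (Ddc), -0.072 to 0.11 (Uchl1), -0.49 to 0.31 (Syt1), -0.37 to 0.66 (Nefm), -0.28 to 0.22 (Dcx), -0.76 to 0.30 (Stmn2), -0.78 to 0.41 (Prph), -0.20 to 0.37 (Gap43), -0.083 to 0.22 (Erbb3) and -0.069 to 1.63 (Sox10). Genes at an adjusted p over 0.05 may still differ.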
